A study of Drosophila melanogaster with 62 samples.

Results

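At early nuclear cycle 14 (early NC14), the stage at which the *Drosophila melanogaster* embryo leaves its rapid syncytial divisions, 4 *brat*-mutant embryos were compared with 4 *HisRFP* control embryos, out of 62 libraries in the series. The libraries were chosen by their genotype and stage labels alone. The *brat*-mutant embryos came from mothers that carried the deficiency *Df(2L)TE37C-7*, which removes *brat*, over the *fs1* allele. These mothers were mated to their brothers, so the genotype of the mother defines the group and the genotype of the single embryo is not known. All embryos carried His2Av-RFP, a red fluorescent histone used to stage them by nuclear density, and the *HisRFP* embryos carried it alone. The *HisRFP* line is not stated to share the genetic background of the *brat* alleles. Each library holds the RNA of 1 whole embryo, made with a kit that selects polyadenylated RNA, and the measurement is the number of reads counted on each gene. A change in the amount of an mRNA and a change in how well its poly(A) tail is captured cannot be told apart, nor can fewer cells of a type and less RNA per cell. No source says that the 4 embryos of a group came from separate crosses, so p-values measure the spread between these embryos.

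BRAT is an RNA-binding protein of the TRIM-NHL family that represses translation and promotes decay of the mRNAs it binds, and it is known as a tumor suppressor in larval neuroblasts. The egg is loaded with maternal mRNAs, and many of these are cleared in successive waves while the zygotic genome is activated. Smaug, Pumilio and BRAT are among the RNA-binding proteins that act in this clearance. Here a maternal gene was called cleared or kept from *HisRFP* embryos of other stages, none of which entered the early NC14 comparison: a cleared maternal gene averaged at least 5 CPM (counted reads scaled to 1000000 per library) in *HisRFP* embryos at NC10 and was called lower at later NC14, as 30.7% of 7582 genes were, and a kept maternal gene was called in neither direction. A zygotic gene averaged under 1 CPM at NC10 and was called higher at later NC14, as 28.4% were.

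Between 15882592 and 30157686 reads per *brat*-mutant embryo were counted on genes, and between 21639219 and 41029921 per *HisRFP* embryo. Log CPM of the *brat*-mutant embryos correlated at 0.991 to 0.994 across genes and that of the *HisRFP* embryos at 0.970 to 0.986. Of 20 follicle cell markers, none had enough reads to be tested, and their summed level was 0.36 to 4.93 CPM in *brat*-mutant embryos and 0.64 to 2.42 CPM in *HisRFP* embryos. Of 10 markers of tissues of older embryos, 6 were tested and none was called, with summed levels of 3.6 to 8.09 CPM in *brat*-mutant embryos and 4.65 to 11.5 CPM in *HisRFP* embryos.

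The test covered 7880 genes. In *brat*-mutant embryos 746 (9.47%) were called higher and 343 (4.35%) were called lower, where a call needed more than a doubling or halving (1 on the log2 scale) with an adjusted p below 0.05. The median log2 fold change over all genes tested was -0.06. Among the genes called higher it was 1.99, and 368 of them changed by over 2 on the log2 scale. Among those called lower it was -2.25, with 209 below -2. The genes called lower were the less abundant: in the group with the higher level, 156 of the 343 averaged at least 10 CPM, against 591 of the 746 called higher. The 4 *brat*-mutant embryos and the 4 *HisRFP* embryos did not overlap for 717 of the genes called higher and for 282 of those called lower, which the call itself favours. Over all genes tested, every *brat*-mutant embryo was above every *HisRFP* embryo in 16.6% and below in 12.1%. The largest and most abundant calls named below were chosen among genes without overlap, so their separation is no added support. Counting did not use the strand, so genes that overlap an antisense partner cannot be told apart from it, and 1 gene called higher and 5 called lower carry an antisense name.

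**Figure D1:**
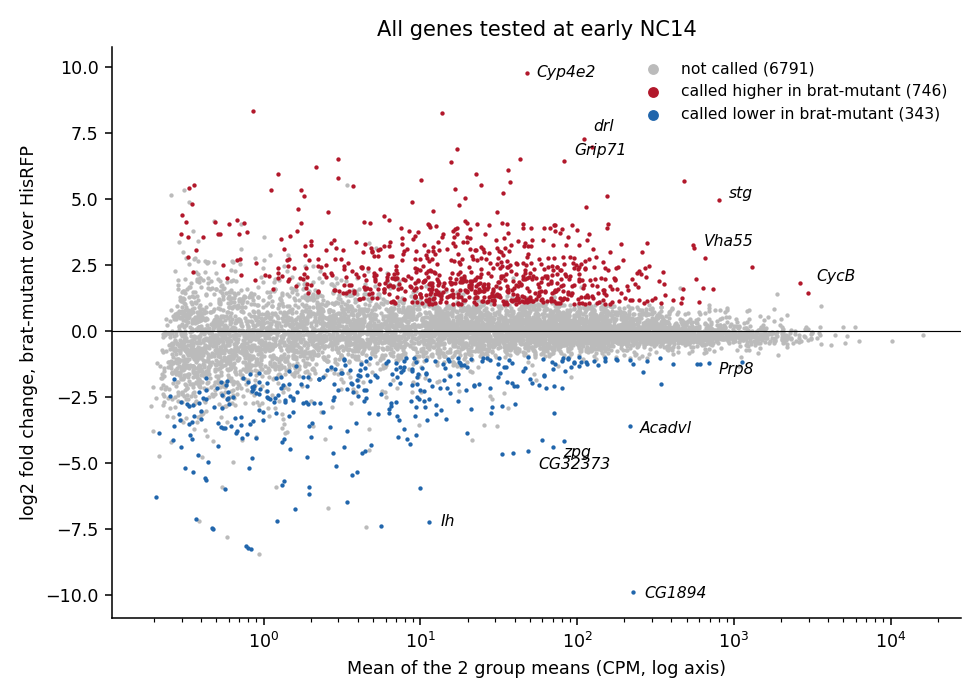
Log2 fold change of each of the 7880 genes tested (vertical axis, *brat*-mutant over *HisRFP*) against the mean of the group means (horizontal axis, CPM, log scale). The 746 genes called higher are spread over mean levels up to those of *CycB*, while most of the 343 called lower lie at low levels.

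Most genes that were higher encoded maternal mRNAs that *HisRFP* embryos lose. Cleared maternal genes made up 517 of the 746 (69.3%), kept maternal genes 121 (16.2%), zygotic genes 13 (1.7%) and all other genes 95 (12.7%). Of the 2203 cleared maternal genes tested, 23.5% were called higher, against 9.47% of all genes, and their median log2 fold change was 0.47. Of the 2710 kept maternal genes, 4.5% were called higher and the median was -0.08. The cleared maternal genes called lower numbered 34.

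The 517 cleared maternal genes called higher took 5.26%, 5.16%, 4.84% and 4.82% of the reads in *brat*-mutant embryos A to D. In *HisRFP* embryos A to D they took 1.08%, 1.80%, 0.875% and 1.44%. The *brat*-mutant embryos were close to each other, and *HisRFP* embryos B and D held more of these mRNAs than A and C. Because these genes were selected for being higher at early NC14, these levels are a description. The other stages are separate libraries. In oocytes these 517 genes took a mean of 8.87% of the reads in *brat* mutants and 8.42% in *HisRFP*, and at NC10 8.77% and 7.59%. At NC12 the means were 7.83% in *brat* mutants and 5.81% in *HisRFP*, and at NC13 they were 6.22% and 2.90%. At later NC14 they had declined to 2.0% in *brat* mutants and 0.909% in *HisRFP*. These shares overlapped between genotypes in oocytes and no longer did at NC10, where summed TMM-normalized CPM still overlapped, and the mRNAs also declined in *brat*-mutant embryos, at later stages. The 1652 cleared maternal genes that were not called took 8.37% to 9.85% of the reads in *brat*-mutant embryos and 5.2% to 9.70% in *HisRFP* embryos at early NC14.

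**Figure D2:**
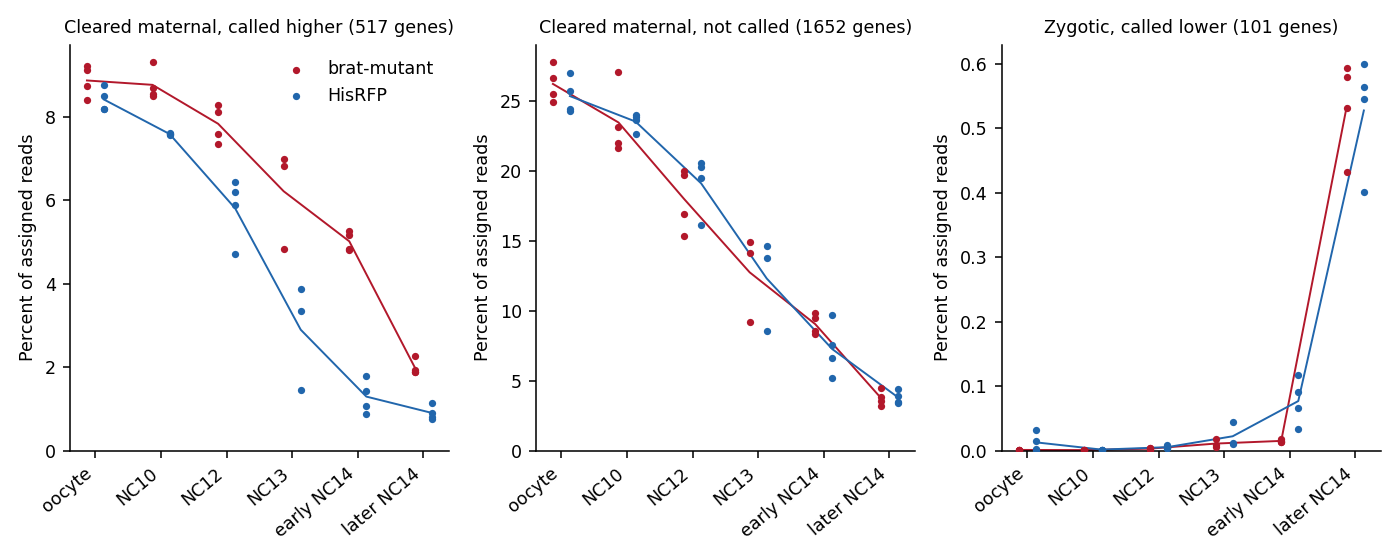
Percent of assigned reads taken by 3 sets of genes at each stage, with a point per library and lines through the group means, *brat*-mutant in red and *HisRFP* in blue. The cleared maternal genes called higher at early NC14 took a mean of 6.22% in *brat* mutants at NC13 against 2.90% in *HisRFP*, while the cleared maternal genes not called overlapped between genotypes, and the zygotic genes called lower took similar shares in both at later NC14.

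Part of the difference was already called at the earlier stages. Of the genes called higher at early NC14 and tested at the other stages, 34 of 721 were also called higher in oocytes, where 0.684% of genes tested were, 90 of 726 at NC10 (1.97%), 183 of 724 at NC12 (3.5%), 197 of 739 at NC13 (2.87%) and 243 of 716 at later NC14 (7.82%). The 197 genes were 95.2% of those called higher at NC13, and the 243 were 45.2% of those called higher at later NC14. None was called lower in oocytes, at NC10 or at NC13. Of the 746 genes, 474 had log2 fold changes within 0.5 of 0 in both oocytes and at NC10, and 406 of these were cleared maternal. In a direct test of the genotype difference at early NC14 minus that at NC10, 513 of 8201 genes (6.26%) were called with a positive and 57 (0.695%) with a negative difference.

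*stg* (*string*) encodes the Cdc25 phosphatase that activates Cdk1, and loss of its mRNA accompanies the lengthening of interphase at NC14. It stood at 1587, 1307, 2057 and 1260 CPM in *brat*-mutant embryos and at 38.4, 85.7, 35.1 and 36.2 CPM in *HisRFP* embryos. Every mutant embryo was far above every control embryo, and *HisRFP* embryo B was the highest of the controls. The log2 fold change was 4.97 ± 0.35 (SE, adjusted p = 1.11e-05). At NC10 it was 0.11, with means of 1050 CPM in *brat* mutants and 986 CPM in *HisRFP*, and at NC13 it was 2.36 (adjusted p = 0.162), not called. In *brat* mutants the mean of *stg* was 1550 CPM at early NC14, and maternal and newly made mRNA cannot be told apart. The genotype difference in *stg* was larger at early NC14 than at NC10 by 4.89 ± 0.40 (SE, adjusted p = 4.89e-07). *stg* was named for its early NC14 values, which this test reuses, so a larger difference is favoured.

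*Grip71*, which encodes a subunit of the gamma-tubulin ring complex, stood at 170, 177, 163 and 146 CPM in *brat*-mutant embryos. In *HisRFP* embryos it had fallen to 0.684, 2.37, 0.879 and 3.31 CPM. Its level hardly varied among mutant embryos, and the log2 fold change was 6.44 ± 0.45 (SE, adjusted p = 1.03e-05), against 0.20 at NC10. Means at NC10 were 190 CPM in *brat* mutants and 168 CPM in *HisRFP*. *lok*, which encodes the checkpoint kinase Chk2, averaged 216 ± 35.4 CPM in *brat*-mutant and 39.6 ± 9.21 CPM in *HisRFP* embryos (SD, n = 4 each). It rose by 2.43 on the log2 scale (adjusted p = 1.26e-05). *CycB*, encoding the mitotic cyclin B, had 4549, 4036, 3924 and 4936 CPM in *brat*-mutant embryos against 1497, 2096, 963 and 1807 CPM in *HisRFP* embryos. The groups did not overlap, and the log2 fold change was 1.44 ± 0.21 (SE, adjusted p = 0.00109). *vih*, which encodes the ubiquitin-conjugating enzyme of the anaphase-promoting complex, rose by 1.59 (adjusted p = 0.0107).

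The gene lists described from here on were chosen with earlier results of these data known. Of 29 syncytial cell cycle genes tested, 6 (20.7%) were called higher and none lower. Of all genes 9.47% were called higher, and of the cleared maternal class, which held all 6, 23.5%. The median log2 fold change of the 29 was 0.22, against -0.06 for all genes. DESeq2 also called 6 higher and none lower, among them *Myt1* (1.5, DESeq2 adjusted p = 0.0249), an inhibitory kinase of Cdk1 that edgeR did not call (1.52, adjusted p = 0.0688), and 1 member was negative at an unadjusted p under 0.05. *mei-41*, the ATR kinase, was among the 6 with 3.02, 9.01, 1.31 and 4.65 CPM in *brat*-mutant embryos and 1.28, 0.411, 0.824 and 1.5 CPM in *HisRFP* embryos. Its groups overlapped, and the call was lost in 6 of the 8 fits that each left out 1 embryo, the exceptions being those without *brat*-mutant C or *HisRFP* D (adjusted p up to 0.111). *aurA*, the Aurora A kinase, was also among the 6, at a log2 fold change just past the threshold (1.0, adjusted p = 0.00136). Of the members not called, *twe*, the other Cdc25 phosphatase of the fly, averaged 464 ± 21.0 CPM in *brat*-mutant and 423 ± 42.8 CPM in *HisRFP* embryos (SD, n = 4 each, log2 fold change 0.10, adjusted p = 0.558). The Cdc25 mRNAs therefore had different values, 4.97 for *stg* and 0.10 for *twe*. *grp*, the Chk1 kinase, had a log2 fold change of 0.91 (adjusted p = 0.00452) and *CycA* 0.81 (adjusted p = 0.001), both under the fold threshold.

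Further abundant mRNAs called higher included *Vha55*, *Fur2* and *wisp*. *Vha55*, which encodes the B subunit of the vacuolar proton pump, had 943, 1086, 1077 and 930 CPM in *brat*-mutant embryos against 94.2, 130, 92.9 and 130 CPM in *HisRFP* embryos. The level in mutants at early NC14, a mean of 1010 CPM, was above their own mean of 751 CPM at NC10, while *HisRFP* embryos averaged 112 CPM and 733 CPM at these stages. The log2 fold change was 3.15 ± 0.14 (SE, adjusted p = 1.04e-06) and it was 3.97 at later NC14. *Fur2*, a furin-type protease, had 1232, 1143, 967 and 1223 CPM in *brat*-mutant embryos and 190, 230, 125 and 121 CPM in *HisRFP* embryos, with no overlap. It rose by 2.75 ± 0.23 (SE, adjusted p = 3.04e-05). *wisp*, the cytoplasmic poly(A) polymerase of the egg, had 1232, 1224, 1073 and 914 CPM in *brat*-mutant embryos against 253, 588, 268 and 356 CPM in *HisRFP* embryos. It rose by 1.58 at early NC14 (adjusted p = 0.0015), and at later NC14 the difference was 0.01, with means of 168 CPM in *brat* mutants and 162 CPM in *HisRFP*. The excess of *Vha55* was thus still measured at later NC14 and that of *wisp* was not.

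**Figure D3:**
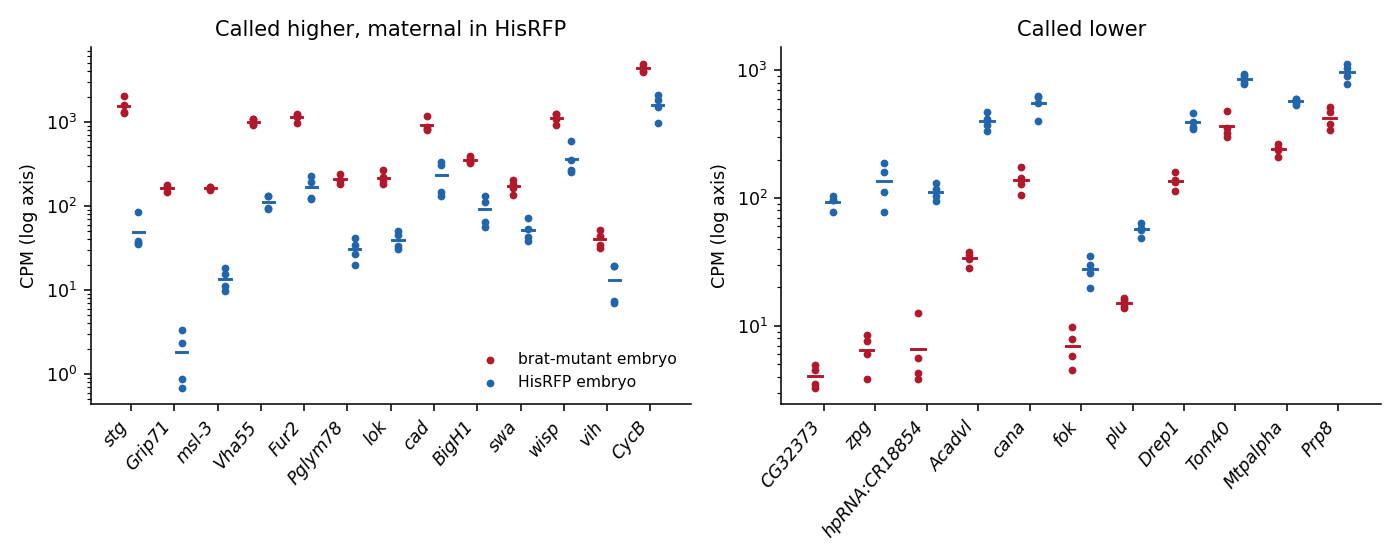
CPM (log scale) of 13 genes called higher (left) and 11 called lower (right), with a point per embryo and a bar at each group mean, *brat*-mutant in red to the left of *HisRFP* in blue. In each of these genes the 4 embryos of one genotype lie beyond the 4 of the other, and *stg* is at 1260 to 2057 CPM in *brat*-mutant embryos against 35.1 to 85.7 CPM in *HisRFP* embryos. Many of these genes were chosen among calls without overlap, so this separation is a description.

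Among the pathway lists, glycolysis had the largest share of members called higher, 6 of 12 (50%). The share was 9.47% of all genes and 23.5% of cleared maternal genes. None of the 12 was called lower, and their median log2 fold change was 1.18. DESeq2 also called 6 higher and none lower, and none was negative at an unadjusted p under 0.05. *Pglym78*, phosphoglycerate mutase, had 201, 204, 237 and 183 CPM in *brat*-mutant embryos and 20, 34.6, 27.0 and 41.4 CPM in *HisRFP* embryos. The groups were far apart, and *Pglym78* rose by 2.73 ± 0.20 (SE, adjusted p = 1.62e-05). *Hex-A*, a hexokinase, had 199, 143, 196 and 126 CPM in *brat*-mutant embryos against 36.0, 71.7, 21.4 and 36.7 CPM in *HisRFP* embryos (log2 fold change 1.98, adjusted p = 0.00243). *Tpi*, triose phosphate isomerase, rose by 2.08 and *Gapdh2*, a glyceraldehyde-3-phosphate dehydrogenase, by 1.35, at levels under 30 CPM (adjusted p = 0.00552 for *Tpi* and 0.00886 for *Gapdh2*). The call of *Gapdh2* was lost when all 38 embryos entered a common fit. The others were the aldolase *Ald1* (1.23) and *Gapdh1* (1.14). Members that were not called included *Pfk* (-0.08, adjusted p = 0.913), *Eno* (-0.54, adjusted p = 0.37) and *Pgk* (-0.40, adjusted p = 0.272). The list did not move as a whole, since 4 of its 12 members had negative values.

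Among genes of genome activation, 3 of 17 (17.6%, against 9.47% of all genes) were called higher and none lower, with a median of 0.04, and the calls of *ttk* and *zld* were each lost when 1 embryo was left out. DESeq2 called 3 higher and none lower, and 2 were negative at an unadjusted p under 0.05. *BigH1*, the embryonic linker histone, had 375, 389, 331 and 324 CPM in *brat*-mutant embryos and 63.9, 112, 56.8 and 131 CPM in *HisRFP* embryos. No embryos overlapped, and *BigH1* rose by 1.95 ± 0.24 (SE, adjusted p = 0.000364). *ttk* (*tramtrack*), a repressor of early zygotic genes, rose by 1.41 (adjusted p = 0.0154), a call lost without *brat*-mutant embryo A (adjusted p = 0.0507). *zld*, which encodes the pioneer factor Zelda, was the other gene called, with a log2 fold change of 1.80 (adjusted p = 0.0188). It reached 8959 CPM in *brat*-mutant embryo C and 1942 to 3058 CPM in the other mutant embryos, against 948 to 1320 CPM in *HisRFP* embryos. Without *brat*-mutant embryo C the value for *zld* was 1.07, and without *HisRFP* embryo A the call was lost (adjusted p = 0.0524). *LBR*, the lamin B receptor, followed a like order, with 1325, 723, 6075 and 725 CPM in *brat*-mutant embryos and 464, 409, 401 and 352 CPM in *HisRFP* embryos. *LBR* was called at 2.43 (adjusted p = 0.0278), with 1.15 without *brat*-mutant C, and lost its call without *HisRFP* A, C or D (adjusted p up to 0.0657). The gene *w* (*white*), named after its values were seen, was also highest in *brat*-mutant C, at 3304 CPM against 17.4 to 397 CPM in the other mutant and 9.04 to 29.5 CPM in *HisRFP* embryos. *w* was called higher at 5.69 (adjusted p = 0.0279), and the cause of its level in *brat*-mutant C was not tested.

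Of 18 maternal axis genes, 3 (16.7%) were called higher and none lower (median 0.19). The share was 9.47% of all genes and 23.5% of cleared maternal genes, the class of all 3. DESeq2 called 3 higher and none lower, and 1 was negative at an unadjusted p under 0.05. *cad* (*caudal*), a posterior homeobox gene with maternal and zygotic mRNA, had 860, 831, 1159 and 798 CPM in *brat*-mutant embryos and 130, 146, 337 and 309 CPM in *HisRFP* embryos. It rose by 1.96 ± 0.31 (SE, adjusted p = 0.00181). *swa* (*swallow*), needed to localize *bicoid* mRNA, rose by 1.72 (adjusted p = 0.000347), and *tub* (*tube*), an adaptor of the Toll pathway, by 1.23 (adjusted p = 0.0465). The call of *tub* was lost in 6 of the 8 fits that left out 1 embryo, the exceptions being those without *brat*-mutant D or *HisRFP* B (adjusted p up to 0.114). Maternal *bcd* was not called and varied widely within both groups, with 470, 16.4, 59.4 and 216 CPM in *brat*-mutant embryos and 152, 461, 28.1 and 36.2 CPM in *HisRFP* embryos. Of 16 genes of sex determination and dosage compensation, 2 (12.5%) were called higher and none lower, and DESeq2 also called *upd1* lower (-1.33, DESeq2 adjusted p = 0.0339, against an edgeR adjusted p of 0.106). *msl-3*, a subunit of the male-specific lethal complex, had 168, 157, 154 and 167 CPM in *brat*-mutant embryos against 11.1, 18.2, 9.62 and 15.5 CPM in *HisRFP* embryos. The embryos of each group were alike, and *msl-3* rose by 3.55 ± 0.20 (SE, adjusted p = 3.74e-06). *sc* (*scute*), an X-linked element of sex determination, was called at 1.61 (adjusted p = 0.0462) and lost the call in 6 of 8 such fits, all but those without *brat*-mutant B or *HisRFP* A (adjusted p up to 0.105). Embryo sex is not in the labels: *Sxl*, the master switch of female development, was at 144, 11.5, 220 and 289 CPM in *brat*-mutant and at 332, 21.3, 931 and 26.7 CPM in *HisRFP* embryos, so 3 mutant and 2 control embryos were high. *sisA*, of the same list, was at 200, 78.2, 185 and 225 CPM in *brat*-mutant and at 223, 35.8, 608 and 39.1 CPM in *HisRFP* embryos. *HisRFP* A and C were also the controls with the smaller cleared maternal shares given above. The parts of embryo sex and of age within the stage in these results were not tested.

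Of 24 genes on the list of repressors and decay factors, 3 (12.5%, near the 9.47% of all genes) were called higher and none lower (median 0.18). The 24 included *CtsL1* (0.39) and *Dredd* (0.23), which encode proteases and were not called. DESeq2 called 3 higher and none lower, and 2 were negative at an unadjusted p under 0.05. *brat* mRNA itself was 1 of them, at a log2 fold change of 3.26 that was -0.59 at NC10 and 1.84 at NC13, with means of 990 CPM in *brat* mutants and 101 CPM in *HisRFP* at early NC14. *roq* (*roquin*), a regulator of mRNA decay, rose by 1.06 (adjusted p = 0.0011), and without *HisRFP* embryo D its value of 0.91 was under the fold threshold. *bru1* (*bruno*), a translational repressor of *oskar*, was called at 1.2 (adjusted p = 0.0414), but its groups overlapped and the call was lost in 6 of 8 fits with an embryo left out, all but those without *brat*-mutant D or *HisRFP* D (adjusted p up to 0.134). *smg*, encoding Smaug, was at 5034, 4975, 4469 and 4570 CPM in *brat*-mutant and at 2809, 2970, 2362 and 1659 CPM in *HisRFP* embryos. The groups did not overlap, and the difference of 0.92 (adjusted p = 0.00637) was under the fold threshold. *pum*, encoding Pumilio, had a value of 0.31 (adjusted p = 0.373). Of 9 germ plasm genes, *CycB* and *osk* (22.2%) were called higher and none lower, with a median of -0.30. Both are cleared maternal, a class with 23.5% called higher, against 9.47% of all genes. DESeq2 also called *pgc* (*polar granule component*) lower (-3.63, DESeq2 adjusted p = 0.0124), which averaged 1.49 CPM in *brat*-mutant and 18.1 CPM in *HisRFP* embryos (edgeR -3.59, adjusted p = 0.0558), and 2 members were negative at an unadjusted p under 0.05. The call of *osk* (1.1, adjusted p = 0.0359) was lost in 6 of the 8 fits, all but those without *brat*-mutant C or *HisRFP* C (adjusted p up to 0.115). The germ plasm mRNA *nanos*, outside the 9 and named after its values were seen, was not called (-4.14, adjusted p = 0.0606). It had 1.29, 3.46, 1.31 and 3.12 CPM in *brat*-mutant embryos and 0.684, 0.73, 68.0 and 93.4 CPM in *HisRFP* embryos.

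*Pus10* and *Kebab* were close to 0 in *HisRFP* embryos. *Pus10*, a pseudouridine synthase, had 43.7, 38.8, 23.7 and 29.9 CPM in *brat*-mutant embryos and 0.0456, 0.137, 0.055 and 0.723 CPM in *HisRFP* embryos. *HisRFP* D was the highest control, and the log2 fold change of *Pus10* was 6.90, or 8.57 without that embryo (adjusted p = 0.000105 with it). *Kebab*, which encodes a microtubule-binding kinetochore protein, averaged 44.3 CPM in *brat*-mutant and 0.684 CPM in *HisRFP* embryos (5.93, adjusted p = 0.000119, or 6.54 without *HisRFP* D). *Kebab* was already higher in oocytes, at 27.0 CPM in *brat* mutants against 6.70 CPM in *HisRFP*. *rdx* (*roadkill*), a substrate adaptor of a Cullin 3 ubiquitin ligase, had 140, 188, 93.2 and 97.6 CPM in *brat*-mutant embryos and 14.5, 31.8, 21.4 and 36.3 CPM in *HisRFP* embryos (2.30, adjusted p = 0.000592). *Hsp27*, a small heat shock protein, rose by 2.34 (adjusted p = 0.00962), or 2.95 without *HisRFP* embryo B. *Myc*, a growth regulator, rose by 1.25 (adjusted p = 0.0123), to 20.1 to 38.5 CPM in *brat*-mutant embryos against 8.02 to 16.7 CPM in *HisRFP* embryos. *stmA*, *rost* and *CG7488*, examples of stabilized mRNAs in the study, rose by 3.81, 2.62 and 2.42. That choice was made on these samples. *dhd*, the germline thioredoxin deadhead, was called at 1.14 (adjusted p = 0.036) and lost the call in 6 of the 8 fits, all but those without *brat*-mutant A or C (adjusted p up to 0.097).

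Other genes called higher differed in *brat* mutants from the oocyte or NC10 on. Of the 746, 91 were called higher in oocytes or at NC10, and 22 in oocytes and at NC10, NC12 and NC13. *Cyp4e2*, a cytochrome P450, had the largest log2 fold change, 9.76 ± 0.46 (SE, adjusted p = 1.16e-06). It stood at 91.5, 104, 75 and 111 CPM in *brat*-mutant embryos and at 0.0258 to 0.22 CPM in *HisRFP* embryos, and its value was already 7.15 in oocytes and 9.53 at NC10. *CG5568* was 6.95 higher, at 243 to 253 CPM in *brat*-mutant embryos and 1.60 to 2.30 CPM in *HisRFP* embryos, with 6.56 in oocytes. *Polr3A*, the largest subunit of RNA polymerase III, differed by -0.15 in oocytes, 5.23 at NC10 and 6.52 at early NC14, or 8.10 without *HisRFP* D. At NC10 it averaged 58.8 CPM in *brat* mutants and 1.65 CPM in *HisRFP*, so its level in controls was already low at that stage.

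**Figure D4:**
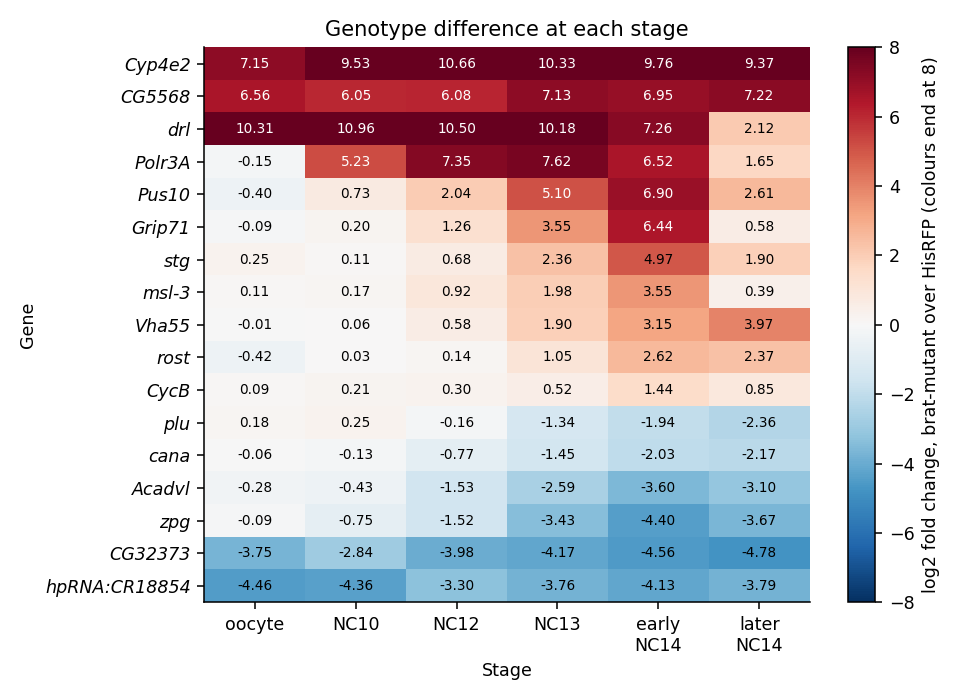
Log2 fold change (*brat*-mutant over *HisRFP*) of 17 genes, in rows, at the 6 stages, in columns from oocyte to later NC14, with the value printed in each cell. *stg*, *Grip71*, *msl-3* and *Vha55* are near 0 in oocytes and at NC10 and reach 3.15 to 6.44 at early NC14, *plu*, *cana*, *Acadvl* and *zpg* are below -1 from NC12 or NC13 on, and *Cyp4e2*, *CG5568*, *drl*, *CG32373* and *hpRNA:CR18854* differ in oocytes.

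Zygotic genes were seldom called higher, with 13 of 757 (1.7%), and several of these were present in *brat*-mutant oocytes. *drl* (*derailed*), a Ryk-family receptor, had 241, 209, 220 and 207 CPM in *brat*-mutant embryos and 0.547, 0.319, 2.58 and 2.14 CPM in *HisRFP* embryos. Its difference of 7.26 ± 0.56 (SE, adjusted p = 1.88e-05) was smaller than the 10.96 at NC10, by 3.68 (adjusted p = 0.0111). *drl* starts 10.6 kb downstream of the end of *brat* (dm6, 2L, from 19133816 to 19179758) on the same strand. *mthl3*, a Methuselah-like receptor, and *tyn* (*trynity*), a zona pellucida domain protein, were higher by 3.47 and 3.51, and by 4.74 and 4.10 at NC10. *trn* (*tartan*), a leucine-rich repeat cell surface protein, was called at 1.53 (adjusted p = 0.0167), a call lost in the common fit of 38 embryos. *hll*, called at 1.81 (adjusted p = 0.047), kept its call only in the fit without *brat*-mutant C among the 8 that left out an embryo, and was 1.04 without *brat*-mutant D.

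The mothers carried a deficiency around *brat*, so neighbouring genes were described by position. Within 1000 kb of the start of *brat*, 143 genes were tested, of which 14 (9.8%) were called higher and 6 (4.2%) lower, close to the 9.47% and 4.35% of all genes. Their median log2 fold change was -0.12 at early NC14 and 0.05 at NC10. The ends of the deficiency were not used, so this window need not match the deleted segment. The 9 genes starting within 250 kb past the start of *brat* had medians of -0.78 at early NC14, -0.07 at NC10 and -0.52 in oocytes. Among them *pigeon* and *CG17568*, named after their values were seen, had -1.69 and -1.36 in oocytes and -1.08 and -1.23 at NC10. Neither was called at early NC14. In the whole window the genes called lower were *Tep4*, *fok*, *Bhmt*, *AsnRS*, *sick* and *gammaTub37C*. *AsnRS*, asparaginyl-tRNA synthetase, starts next to *brat* and had 14.0, 21.0, 15.9 and 13.8 CPM in *brat*-mutant embryos against 35.1, 68.6, 25.5 and 65.2 CPM in *HisRFP* embryos. The groups did not overlap (-1.61, adjusted p = 0.00509), and the value was -0.38 in oocytes. *Bhmt*, named for betaine-homocysteine methyltransferase, was at under 1 CPM in *brat*-mutant and at 1.91 to 3.19 CPM in *HisRFP* embryos, with -3.18 in oocytes. *gammaTub37C*, the maternal gamma-tubulin, was called at -2.02 (adjusted p = 0.0402) at levels under 5 CPM, and kept the call only without *HisRFP* A. The calls higher included *Grip71*, *lok*, *drl* and, named after their values were seen, *Swip-1* (4.10, adjusted p = 5.61e-06) and *Phb1* (2.38, adjusted p = 0.000309).

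**Figure D5:**
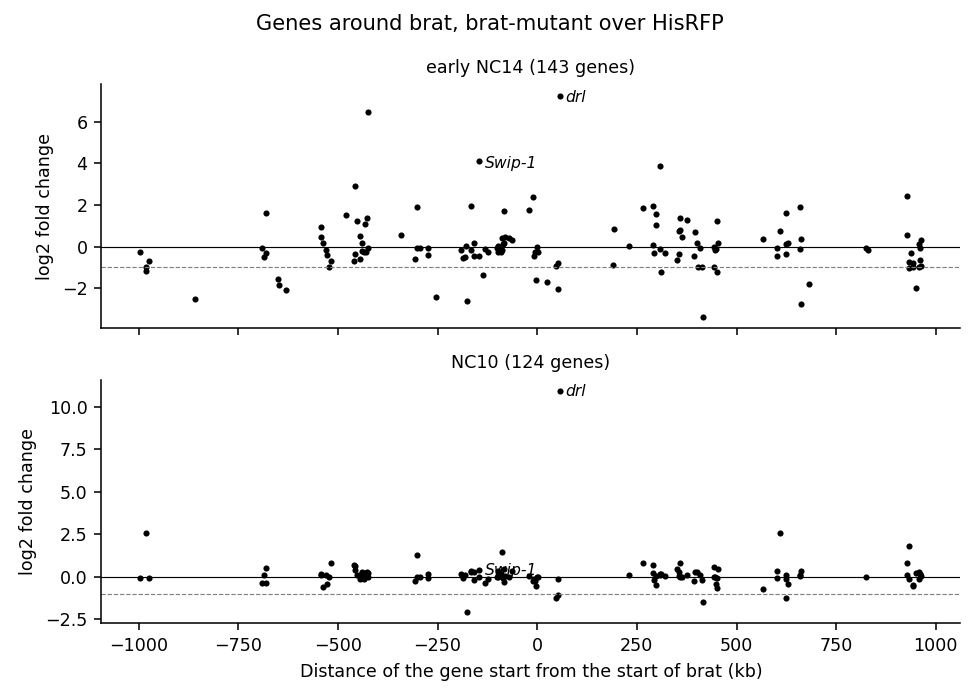
Log2 fold change (*brat*-mutant over *HisRFP*) of genes within 1000 kb of *brat*, by the distance of their start from the start of *brat*, at early NC14 (top, 143 genes) and at NC10 (bottom), with a dashed line at -1. *drl* stands at 7.26 at early NC14 and 10.96 at NC10, and the medians of all these genes are -0.12 and 0.05.

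The genes called lower were a mixed group: 83 of the 343 (24.2%) were kept maternal, 34 (9.9%) cleared maternal, 101 (29.4%) zygotic and 125 (36.4%) in none of these classes. Of the kept maternal genes, 3.1% were called lower, against 4.35% of all genes, and of the zygotic genes 13.3%. Of those tested at the other stages, 54 of 205 were also called lower at NC10 (1.3% of all genes), 69 of 279 at NC13 (1.04%) and 104 of 306 at later NC14 (5.91%). The 69 genes were 90.8% of those called lower at NC13 and the 104 were 23.3% of those at later NC14, where 16 were called higher.

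Abundant mRNAs called lower included *Acadvl*, *Mtpalpha* and *Tom40*. *Acadvl*, a very long chain acyl-CoA dehydrogenase of fatty acid oxidation, had 33.3, 35.9, 37.5 and 28.5 CPM in *brat*-mutant embryos and 413, 334, 473 and 376 CPM in *HisRFP* embryos. The groups were far apart, and *Acadvl* fell by 3.60 on the log2 scale (SE 0.16, adjusted p = 1.04e-06). At NC10 *Acadvl* averaged 148 CPM in *brat* mutants and 203 CPM in *HisRFP*, so it declined in mutants while it increased in controls. *Mtpalpha*, the alpha subunit of the mitochondrial trifunctional protein, which also acts in fatty acid oxidation, had 252, 239, 267 and 211 CPM in *brat*-mutant embryos against 539, 596, 600 and 556 CPM in *HisRFP* embryos. It fell by 1.27 (SE 0.11, adjusted p = 3.5e-05). *Tom40*, the channel of the outer membrane translocase, had 321, 356, 476 and 301 CPM in *brat*-mutant embryos against 937, 777, 901 and 804 CPM in *HisRFP* embryos, and fell by 1.27 (adjusted p = 0.000543). The values of these genes at NC10 were -0.43 for *Acadvl*, -0.09 for *Mtpalpha* and -0.11 for *Tom40*. *Mdh2*, mitochondrial malate dehydrogenase, was called at -1.04 and lay above -1 without *brat*-mutant B, *brat*-mutant D or *HisRFP* C. Of 62 genes of oxidative phosphorylation, 2 (3.2%, against 4.35% of all genes) were called lower and none higher (median -0.15), and DESeq2 called the same numbers. Of 71 mitochondrial ribosomal proteins 7 (9.9%, against 9.47% of all genes) were called higher and none lower (median 0.33), and DESeq2 called 6 higher and none lower. At an unadjusted p under 0.05, 17 of the 62 were lower and 5 higher, and 7 of the 71 were lower and 28 higher. Of all 7880 genes, 1333 were lower and 1435 higher at that p.

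The maternal mRNAs *zpg*, *cana* and *plu* were also called lower. *zpg*, the germline gap junction protein innexin 4, had 3.82, 8.50, 7.56 and 6.0 CPM in *brat*-mutant embryos and 112, 189, 77.9 and 160 CPM in *HisRFP* embryos. It had been at a mean of 292 CPM in *brat*-mutant and 308 CPM in *HisRFP* oocytes, and it fell by 4.4 at early NC14 (SE 0.34, adjusted p = 1.75e-05). *cana*, a CENP-E-like kinesin, had 176, 144, 129 and 105 CPM in *brat*-mutant embryos against 555, 622, 632 and 398 CPM in *HisRFP* embryos. The groups did not overlap (-2.03, adjusted p = 0.000101), and at NC10 the value was -0.13. *plu* (*plutonium*), a subunit of the Pan Gu kinase complex that acts at egg activation, had 16.5, 15.9, 14.3 and 13.7 CPM in *brat*-mutant embryos and 58.8, 63.5, 48.6 and 56.5 CPM in *HisRFP* embryos. It fell by 1.94 (SE 0.15, adjusted p = 2.16e-05), while the other Pan Gu subunits *png* (0.78, adjusted p = 0.113) and *gnu* (0.71, adjusted p = 0.505) were not called. For *zpg*, *cana* and *plu*, the test against NC10 called a larger difference at early NC14, of -3.62, -1.85 and -2.15. These genes were named for their early NC14 values, which that test reuses. *fok* (*fledgling of Klp38B*) fell by 2.0 (adjusted p = 0.000844), with 0.24 at NC10.

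*Prp8*, *Gp210* and *Drep1* were abundant as well. *Prp8*, the central component of the spliceosome, had 516, 378, 469 and 338 CPM in *brat*-mutant embryos and 905, 1127, 1048 and 785 CPM in *HisRFP* embryos (-1.21, adjusted p = 0.000957). *Gp210*, a nuclear pore membrane glycoprotein, was at 276 to 384 CPM in *brat*-mutant embryos against 795 to 838 CPM in *HisRFP* embryos (-1.27, adjusted p = 7.54e-05), and already at -0.80 at NC10. *Drep1*, an inhibitor of the caspase-activated nuclease, was at 114 to 159 CPM in *brat*-mutant embryos against 345 to 466 CPM in *HisRFP* embryos (-1.56, adjusted p = 5.76e-05), with -1.06 at NC10. *RpL10Ab* was the only 1 of 85 ribosomal protein genes called (1.2%, against 4.35% of all genes called lower), at -1.2 (adjusted p = 0.00541). The median of the 85 was -0.22, and 68 had negative values, against 4273 of all 7880 genes. At an unadjusted p under 0.05, 27 of the 85 were lower and none higher, against 1333 lower and 1435 higher of the 7880. *Hsp23*, a small heat shock protein, was called lower at -1.16 (adjusted p = 0.00884), while *Hsp27* was called higher. *Hsp70Bb*, also called higher (3.76, adjusted p = 0.0324), has near-identical copies whose shared reads were discarded, and the call was kept only without *brat*-mutant A, *brat*-mutant B or *HisRFP* C, with 2.32 without *brat*-mutant D.

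Some genes called lower also differed in oocytes or at NC10. Of the 343, 56 were called lower in oocytes or at NC10, and 10 at all 6 stages. *CG32373* had 4.98, 3.27, 4.51 and 3.49 CPM in *brat*-mutant embryos and 104, 96.7, 96.6 and 77.2 CPM in *HisRFP* embryos (-4.56, adjusted p = 1.37e-06). In oocytes it averaged 3.50 CPM in *brat* mutants and 47.0 CPM in *HisRFP*, and it was called lower at all 6 stages. *hpRNA:CR18854*, a hairpin RNA that is a precursor of endogenous small interfering RNAs, was at 3.86 to 12.6 CPM in *brat*-mutant embryos against 95.5 to 131 CPM in *HisRFP* embryos (-4.13, adjusted p = 4.98e-05), with -4.46 in oocytes, and *lncRNA:CR46064* was at -3.95 (adjusted p = 7.19e-05), with -2.45 in oocytes, not called there (adjusted p = 0.101). *Ih*, a hyperpolarization-activated cation channel, was at 0.4, 0, 0.218 and 0 CPM in *brat*-mutant embryos and at 18.7, 52.7, 15.3 and 4.0 CPM in *HisRFP* embryos, at -7.26 (adjusted p = 0.00165), or -8.66 without *brat*-mutant A and -6.44 without *HisRFP* B. In oocytes its value was -7.47, while at later NC14 it was 0.47 and not called, with means of 5.80 CPM in *brat* mutants and 4.12 CPM in *HisRFP*. *Tep4*, a thioester-containing protein of innate immunity within 1000 kb of *brat*, fell by 3.39 (adjusted p = 0.000214), with -1.26 in oocytes and -0.89 at later NC14, neither called.

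Zygotic genes were lower at early NC14 with a median log2 fold change of -1.0 over the 757 tested, against -0.06 for all genes, and 611 of the 757 had negative values. This median was -0.59 without *HisRFP* embryo D. Levels were low: the median gene of the class was at 0.48 to 0.74 CPM in *brat*-mutant and 0.68 to 1.73 CPM in *HisRFP* embryos. The 757 genes took 0.537%, 0.544%, 0.607% and 0.699% of the reads in *brat*-mutant embryos A to D and 0.637%, 0.473%, 0.990% and 0.912% in *HisRFP* embryos A to D. The groups overlapped, and *HisRFP* C and D held the largest shares. The 101 zygotic genes called lower took 0.014% to 0.019% in *brat*-mutant embryos and 0.034% to 0.117% in *HisRFP* embryos, and at later NC14 they took a mean of 0.534% in *brat* mutants and 0.528% in *HisRFP*. Leaving out single embryos gave 42 to 140 zygotic genes called lower, with 42 without *brat*-mutant A, 50 without B, 55 without C, 60 without D and 62 without *HisRFP* C.

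Published lists that group zygotic genes by the timing of their onset were taken whole, and were not limited to the zygotic class above. The medians of their tested genes were -0.26 for 76 Early, -0.59 for 81 Mid, -0.98 for 117 Late and -1.0 for 60 Later genes. The numbers called lower were 6 (7.9%), 12 (14.8%), 21 (17.9%) and 3 (5.0%), against 4.35% of all genes. Those called higher were 1 (1.3%), 2 (2.5%), 1 (0.9%) and 2 (3.3%), against 9.47% of all genes. The lists hold 122 Late and 88 Later genes, and those with too few reads were not tested. A low gene can reach the read minimum through the group where it is higher. Of the listed gap, pair-rule, segment polarity, Hox and dorsal-ventral genes, none that was called lower kept its call in all 8 fits that left out an embryo. *prd* (*paired*), a pair-rule gene, had 1.11, 0.331, 2.40 and 0 CPM in *brat*-mutant embryos and 33.9, 7.21, 8.57 and 11.9 CPM in *HisRFP* embryos. The groups did not overlap (-4.11, adjusted p = 0.0182), and the call of *prd* was lost without *brat*-mutant A, *brat*-mutant B or *HisRFP* A (adjusted p up to 0.062). It was the only 1 of 9 pair-rule genes that edgeR called (11.1%, against 4.35% of all genes). DESeq2 also called *hry* (*hairy*) lower (-1.95, DESeq2 adjusted p = 0.0104), which averaged 5.41 CPM in *brat*-mutant and 20 CPM in *HisRFP* embryos (edgeR -1.94, adjusted p = 0.0651). Neither tool called *ftz* (-0.20, adjusted p = 0.789), *run* (-0.99, adjusted p = 0.148) or *eve* (1.27, adjusted p = 0.146).

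Of 16 segment polarity and Hox genes, 2 (12.5%, against 4.35% of all genes) were called lower and 1 higher (median -1.53). DESeq2 also called *nkd* (*naked cuticle*) lower (-3.71, DESeq2 adjusted p = 0.00799, against an edgeR adjusted p of 0.092). *ptc* (*patched*), the Hedgehog receptor, had 14.9, 11, 14.1 and 23.5 CPM in *brat*-mutant embryos and 35.3, 14.5, 145 and 71.3 CPM in *HisRFP* embryos. *HisRFP* B lay within the mutant range, and the call of *ptc* (-2.09, adjusted p = 0.0355) was kept only without *HisRFP* A or B (adjusted p up to 0.109, and -1.35 without *HisRFP* C). *ci* (*cubitus interruptus*), the transcription factor of the same pathway, was at under 0.5 CPM in *brat*-mutant embryos and at 1.0, 0.137, 3.13 and 17 CPM in *HisRFP* embryos (-4.63, adjusted p = 0.031). It kept the call only without *HisRFP* A, B or C, and its value was -2.81 without *HisRFP* D. *en* (*engrailed*), which marks the posterior compartment of each segment, was higher, with 2.40, 3.24, 5.96 and 3.81 CPM in *brat*-mutant embryos against 0.182, 0.684, 0.44 and 0.982 CPM in *HisRFP* embryos (2.71, adjusted p = 0.00622). *en* thus moved the other way from *ptc* and *ci*.

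Of 10 gap genes, *cad* was the only 1 that edgeR called (10%, against 9.47% of all genes called higher). *kni* (*knirps*) averaged 8.50 ± 8.45 CPM in *brat*-mutant and 64.3 ± 39.5 CPM in *HisRFP* embryos (SD, n = 4 each). Its groups overlapped, and its log2 fold change of -2.92 had an adjusted p = 0.05, at the threshold, while DESeq2 called *kni* lower (-2.95, DESeq2 adjusted p = 0.0162). *Kr* had 40.7, 99.5, 172 and 39.3 CPM in *brat*-mutant embryos and 193, 96.5, 173 and 209 CPM in *HisRFP* embryos (-0.97, adjusted p = 0.167), with overlapping groups. *hb* varied from 321 to 1728 CPM in *brat*-mutant and from 263 to 1054 CPM in *HisRFP* embryos (0.77, adjusted p = 0.331). Of 23 dorsal-ventral genes, *rho* (*rhomboid*), a protease of EGF receptor signalling, was the only 1 that edgeR called (4.3%, against 4.35% of all genes called lower), at -1.38 (adjusted p = 0.0282), a call lost without *brat*-mutant A, *brat*-mutant C, *HisRFP* A or *HisRFP* B (adjusted p up to 0.0879). DESeq2 called 3 of the 23 lower, *rho*, *tup* (*tailup*, -2.44, DESeq2 adjusted p = 0.0139, edgeR 0.0574) and *ths* (*thisbe*, -3.30, DESeq2 adjusted p = 0.0457, edgeR 0.107). The mesoderm regulators *twi* (-0.42, adjusted p = 0.434) and *sna* (-0.76, adjusted p = 0.302) were not called.

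Of 8 genes of cellularization and gastrulation, only *fog* (*folded gastrulation*) was called (12.5%, near the 9.47% of all genes called higher). It was higher at 1.2 (adjusted p = 0.0219) and lost the call when *brat*-mutant A, *brat*-mutant C or *HisRFP* C was left out (adjusted p up to 0.0603). *slam* had 2621, 2303, 2812 and 3525 CPM in *brat*-mutant embryos and 2922, 2300, 4624 and 3605 CPM in *HisRFP* embryos (-0.28, adjusted p = 0.41). *bnk* had a value of 0.05 (adjusted p = 0.886). The mRNAs of *slam* and *bnk*, genes that act in cell formation, overlapped between genotypes.

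Other zygotic genes called lower had levels that varied strongly among *HisRFP* embryos. *GluRIIA*, a glutamate receptor subunit, had 2.93, 1.99, 2.11 and 3.58 CPM in *brat*-mutant embryos and 119, 3.79, 129 and 4.34 CPM in *HisRFP* embryos. *HisRFP* A and C were high and B and D close to the mutants, and the call of *GluRIIA* (-4.65, adjusted p = 0.0188) was lost without *brat*-mutant A, B or C (adjusted p up to 0.0644). *Cyp309a1*, a cytochrome P450, showed the same split, with 0, 0.0368, 0.291 and 0 CPM in *brat*-mutant embryos and 12.8, 0.867, 28.9 and 1.76 CPM in *HisRFP* embryos (-7.39, adjusted p = 0.00684). Its value was -9.24 without *brat*-mutant C and -6.23 without *HisRFP* C. *zye* was at 1.43 to 3.85 CPM in *brat*-mutant embryos and 15.6 to 79.5 CPM in *HisRFP* embryos, at -3.88, or -3.22 without *HisRFP* D. *uif* (*uninflatable*), a membrane protein of tracheal cells, was at 0.744 to 1.73 CPM in *brat*-mutant embryos and 1.83 to 34.3 CPM in *HisRFP* embryos, at -3.72, or -2.82 without *HisRFP* C. *CG43394* was at 2.98 to 14.5 CPM in *brat*-mutant and at 24.2 to 50.2 CPM in *HisRFP* embryos (-2.06, adjusted p = 0.0097). *Ance*, angiotensin-converting enzyme, was called at -1.16 (adjusted p = 0.033) and lost the call without *brat*-mutant A, C or D or *HisRFP* C or D (adjusted p up to 0.0936). *pros* (*prospero*), a regulator of neural differentiation, was called lower at -2.57 (adjusted p = 0.0342), and kept the call only without *HisRFP* A or B, with -1.92 without *HisRFP* D.

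Single embryos set some of the largest fold changes. The largest fall of any gene called was that of *CG1894*, named after its values were seen, at -9.91 (adjusted p = 0.0427), where *HisRFP* C had 1813 CPM and the other *HisRFP* embryos had 0.319, 1.96 and 1.11 CPM, against 0.4, 0, 1.75 and 0.232 CPM in *brat*-mutant embryos. *srp* (*serpent*), a GATA factor, and *fkh* (*fork head*), also chosen after their values were seen, were highest in the same embryo. *srp* had 256 CPM in *HisRFP* C and 2.92 to 24.3 CPM in the other *HisRFP* embryos, against 1.91 to 4.65 CPM in *brat*-mutant embryos, and *fkh* had 67.0 CPM in *HisRFP* C, 0.183 to 10.6 CPM in the others and 0.145 to 0.441 CPM in *brat*-mutant embryos.

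The longest annotated 3′ untranslated region had a median length of 382 bases among the genes called higher, 300.5 among those called lower and 321 among all genes tested, and of 420 among cleared maternal genes called higher against 397 among those not called.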

How the data were processed

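RNA-seq libraries of single oocytes and staged embryos were sequenced by the authors, who aligned reads to dm6 with HISAT2 2.1.0, discarded multiply aligned reads, filtered with SAMtools and counted genes with featureCounts 1.5.3. The deposited values are raw read counts per gene, without normalization. Total counts per early NC14 library are given above, and intervals of counting error do not apply to PCR reads as independent molecules.

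Genes with at least 50 reads summed over the 8 libraries entered edgeR 4.0.16 (R 4.3.3), with TMM normalization, its quasi-likelihood F-test and Benjamini-Hochberg adjustment. Every adjusted p here comes from that test unless DESeq2 is named beside it. Calls required an adjusted p below 0.05 and a log2 fold change beyond 1 in size. CPM used TMM factors over all 62 libraries. Other stages and the *HisRFP* classes were fitted alone in the same way, and the difference between early NC14 and NC10 as a contrast over 16 libraries. Scripts were tested on simulated data, and names, coordinates and untranslated regions came from the Ensembl annotation of dm6. The alternatives were RLE factors, library totals, DESeq2 1.42.0, filterByExpr, no filter beyond 1 read, a common fit of 38 embryos, the replicate letter as a block, a maternal minimum of 20 CPM and leaving out each embryo.

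Members and gene lists were chosen with earlier results of these data known. Genes were named by rule: 9 genes of the study, the 12 largest rises and falls and the 8 most abundant of each among non-overlapping calls averaging at least 10 CPM, up to 4 called members of each list, up to 8 genes called lower near *brat*, and the leading cleared maternal (8) and zygotic (6 in each direction) calls. Genes that the lists contain but the test did not call, and a few singled out, were named after their values were seen. DESeq2 results of the authors were not used.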

Additional observations from a re-analysis of the deposited data

Results flagged for a closer look

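In 196 groups of 4 embryos examined for a value standing far from the others by Dixon's test, 12 values did so, and chance gives about 1 in 20 groups. In *brat*-mutant embryos, embryo C was the highest for *zld* (8959 CPM), *LBR* (6075 CPM), *Act5C* (7655 CPM) and *Cyp309a1* (0.291 CPM). *brat*-mutant B was the lowest for *CG14013* (0.662 CPM) and *sc* (68.4 CPM), and *brat*-mutant D for *ttk* (10.8 CPM). In *HisRFP* embryos, embryo D was the highest for *Pus10* (0.723 CPM), *Polr3A* (2.51 CPM), *CG12219* (2.17 CPM) and *CG9436* (2.82 CPM), and embryo B for *stg* (85.7 CPM).

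For 37 named genes the genotype difference at early NC14 differed from that at NC10 in a direct test, 27 of them upward and 10 downward. Over all 8201 genes in that test, 6.26% were called upward and 0.695% downward. Most named genes were chosen by their early NC14 values, which this test reuses, so such calls are favoured. The excess over NC10, as a log2 difference, was 6.26 for *Grip71*, 6.16 for *Pus10*, 4.89 for *stg*, 3.89 for *brat*, 3.54 for *stmA*, 3.50 for *Kebab*, 3.42 for *msl-3* and 3.13 for *Vha55*. It was 2.63 for *rost*, 2.61 for *Fur2*, 2.46 for *Pglym78*, 2.19 for *CG7488*, 2.08 for *rdx*, 2.01 for *Hsp27*, 1.97 for *BigH1*, 1.96 for *Hex-A*, 1.86 for *Cyp6a20*, 1.82 for *swa* and 1.79 for *cad*. It was 1.66 for *lok* and for FBgn0267727, 1.59 for *wisp*, 1.51 for *fog*, 1.43 for *vih*, 1.39 for *ttk*, 1.26 for *CycB* and 1.17 for *roq*. Downward it was -3.68 for *drl*, -3.62 for *zpg*, -3.12 for *Acadvl*, -2.19 for *fok*, -2.15 for *plu*, -1.87 for *Tep4*, -1.85 for *cana*, -1.68 for *CG32373*, -1.14 for *Mtpalpha* and -1.12 for *Tom40*. For *drl* the genotype difference was positive at both stages, and smaller at early NC14.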

How the results depend on the processing

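The number of genes called higher was 746 and 700 to 909 under the other settings, and 617 to 842 with an embryo left out. DESeq2 called 833, of which 742 were among the 746. Cleared maternal genes called higher numbered 517, and 439 to 590 with an embryo left out, and kept maternal genes called higher 121, and 100 to 150 with an embryo left out. A maternal minimum of 20 CPM in place of 5 gave 78 kept maternal genes called higher. The number called lower was less stable: 343, with 590 in a common fit of all 38 embryos and 204 to 388 with an embryo left out, the smallest without *brat*-mutant A (204) and B (212). Zygotic genes called lower numbered 101, 158 with DESeq2, 175 in the common fit and 42 to 140 with an embryo left out. Kept maternal genes called lower ranged from 65 to 88 with an embryo left out. The excess over NC10 was called upward for 476 to 677 and downward for 45 to 77 genes with an embryo left out. The median near *brat* was -0.12, and -0.08 both with library totals and in a window of 500 kb. None of the 88 named genes called turned its direction in these settings, which were tabulated gene by gene for named genes only, while *tsh* and *FER*, not called, took both signs. The cause of these shifts was not tested. Low levels limit the precision of many calls lower, as 156 of the 343 averaged at least 10 CPM in the higher group. Motifs in 3′ untranslated regions were planned and not run, since no genome sequence was used here.

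The replicate letters are shared between genotypes, but same-lettered embryos did not deviate from their group means together (r of -0.00434, 0.0436, 0.00598 and -0.157 across genes for A to D, genes not being independent replicates). With the letter as a block, 702 genes were called higher and 230 lower, 502 cleared maternal genes were higher, and 56 zygotic genes were lower. The excess over NC10 was called upward for 493 and downward for 42 genes.

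Of the 88 named genes called, 62 kept the call in each of the 8 fits that left out an embryo, and 26 lost it in at least 1, of which 13 were called higher and 13 lower.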
